A study of Mus musculus with 4 samples.

Results

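The genes described here are 31 components of the pathway that runs from the LPS receptor TLR4 to the transcription factor NF-kB. They were chosen by name from a list of 31 members, in 4 tiers: 7 receptors and adaptors, 11 kinases and their complexes, 5 NF-kB subunits, and 8 inhibitors and feedback genes. All 31 were found among the 24473 genes with FPKM values (expression scaled to gene length and library size) and the 55401 genes with counts. All 31 also passed the filter on low counts that left 15733 genes for testing. BV-2 is an immortalised mouse microglial line, and each of its 4 libraries came from cells kept with lipopolysaccharide (LPS) at 100 ng/mL for 24 h. The control group, 2 libraries, had the genotype label WT and the sample titles sh c1 and sh c2. The other group, 2 libraries, had the genotype label SIX2 knockdown and the titles sh s1 and sh s2. Both groups therefore carried LPS, no library without LPS was analysed here, and the labels name neither the hairpin nor a clone.

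TLR4 sits at the cell surface with its co-receptor MD-2 and receives LPS from CD14. It signals through paired adaptors, TIRAP with MyD88 and TRAM with TRIF. MyD88 gathers the IRAK kinases and TRAF6, which activate TAK1 and then the IkB kinase complex. That complex marks the IkB proteins for destruction and so frees NF-kB dimers to enter the nucleus, where they switch on inflammatory genes together with the genes for their own inhibitors. In microglia this route is the main sensor of bacterial LPS.

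Libraries held 60956299 to 75672836 counts. Low counts piled up at multiples of 4, so 1 sequenced fragment may stand for about 4 counts, although over the values from 1 to 20 only 42.1% to 47.2% were such multiples and how the counts were made is not known here. Six2, the targeted gene, had a count of 0 in all 4 libraries, which allows up to 12 counts per library if 3 fragments are taken as 4 counts each, so it checked neither the knockdown nor the labels. Whether a group's pair of libraries came from separate cultures is not in the labels, so the p-values speak for library-to-library spread alone, and that spread may be technical. In bulk RNA, fewer cells expressing a gene and less RNA per cell cannot be told apart.

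Across the pathway, none of the 31 genes passed edgeR's quasi-likelihood test at a Benjamini-Hochberg adjusted p of 0.05, where 0.953% of all 15733 genes passed. At an unadjusted p of 0.05 the count was 5 of 31, 1 higher and 4 lower in the knockdown libraries, against 14.2% of all genes in either direction, 7.52% higher and 6.7% lower. The 5 were Tirap on the higher side, and Nfkb2, Tnfaip3, Relb and Ticam2 on the lower side. Both knockdown libraries lay below both controls for 9 members and above both for 6, where each pattern held for 23.8% of all genes. These non-overlap shares, and the unadjusted share in either direction, were near the background. By direction, the 4 lower and 1 higher leaned to the lower side, which was not tested. The median log2 fold change, knockdown minus control, was -0.08 over the members and -0.01 over all genes. By DESeq2, 2 of the 31 passed, Nfkb2 and Tnfaip3, where 5.22% of genes passed.

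**Figure D1:**
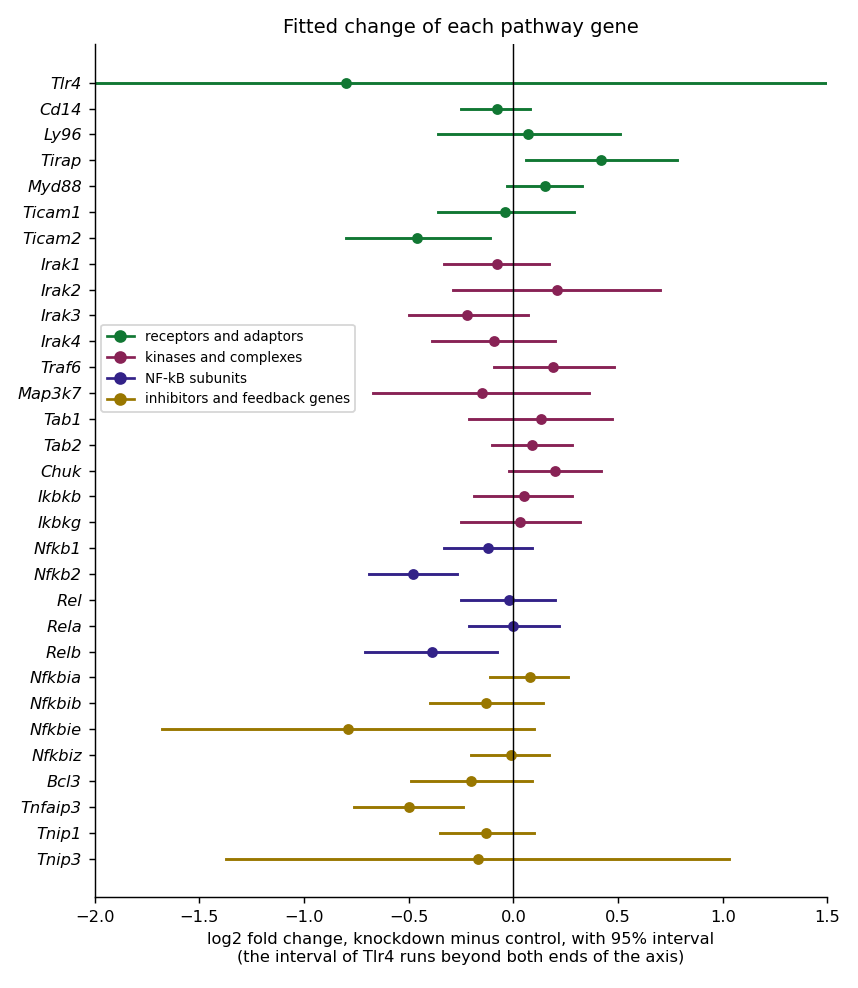
Fitted log2 fold change of each of the 31 genes (horizontal axis, knockdown minus control) with its 95% interval, coloured by tier, from edgeR on 2 libraries per group. The intervals of Nfkb2, Tnfaip3, Relb and Ticam2 lie below 0 and that of Tirap above it, none passed after adjustment over all genes, and the interval of Tlr4 runs from -5.65 to 4.05.

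Among the receptors and adaptors, the receptor gene itself had the widest spread. Tlr4 (chromosome 4, 66827584 to 66930284, plus strand, GRCm38), which encodes the LPS receptor, was read at 2356 and 2014 counts in control and at 301 and 2057 counts in knockdown libraries. Scaled to library size, these were 30.9 and 32.6 CPM (counts relative to library size, with TMM scaling) against 4.06 and 32.5 CPM. Knockdown library 1 alone was low, 7.6-fold under the nearest of the others, and knockdown library 2 lay between the controls. The fitted log2 fold change was -0.80 ± 1.28 (SE) with adjusted p = 0.868 by edgeR. It was 0.03 without knockdown replicate 1. Without knockdown replicate 2 it was -2.96, which passed (adjusted p = 0.0131 by edgeR).

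A single library apart from the rest was not restricted to Tlr4. Of 10319 genes that reached 5 CPM in a library, 20 lay at least 2-fold below all other libraries in knockdown library 1, and Tlr4 had the third largest such gap. The same count was 27 and 38 for the control libraries and 30 for knockdown library 2. Tlr4 overlaps no other gene model. Tlr7, an endosomal receptor for RNA named here after its values were seen, had 14.9 and 11.3 CPM in controls and 14.7 and 53.1 CPM in knockdown libraries, so its high library was the other knockdown replicate.

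The genes of TLR4's partners at the membrane had small differences. Cd14, which hands LPS to the receptor, had 161 and 163 CPM in control and 150 and 156 CPM in knockdown libraries. Both knockdown values were lower, but the 95% interval of the log2 fold change was -0.25 to 0.08. Ly96, the gene of MD-2, had 7.72 and 7.03 CPM against 7.5 and 8 CPM, and the groups overlapped. Its interval was wider, -0.36 to 0.51.

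The adaptor genes differed in direction. Tirap, the bridging adaptor that brings MyD88 to the membrane, had 14.3 and 14.0 CPM in control and 20.9 and 16.8 CPM in knockdown libraries. Both knockdown libraries were higher, with a log2 fold change of 0.42 ± 0.15 (SE, adjusted p = 0.281 by edgeR). Myd88, the adaptor shared by nearly all Toll-like receptors, had 107 and 101 CPM against 115 and 115 CPM (interval -0.03 to 0.33). Ticam2, which encodes TRAM, the sorting adaptor of the TRIF route, had 15.7 and 17.6 CPM in control and 12.8 and 11.4 CPM in knockdown libraries. Both knockdown libraries were lower, and the log2 fold change was -0.46 ± 0.14 (SE, adjusted p = 0.235 by edgeR). Ticam1, which encodes TRIF, had 23.5 and 25 CPM against 26 and 21.3 CPM, with overlapping groups.

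Some of these adaptor values carry an annotation limit. Ticam2 shares its strand and part of its span with Tmed7, a trafficking protein gene at 146 and 146 CPM in control and 129 and 142 CPM in knockdown libraries, so how reads were shared between them makes Ticam2 uncertain. Ticam2 is 1 of 5 members with such an overlap on their own strand, beside Myd88, Irak1, Irak2 and Nfkb1. Another gene model lies on the opposite strand for 12 members, Tirap and Nfkb2 among them. Whether counting used the strand is not known here, and without it reads of such pairs cannot be told apart.

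In the kinase tier, no gene reached an unadjusted p of 0.05, and the fitted changes ran from -0.22 to 0.21 on the log2 scale. Of the 11 genes, 4 lay below 0 and 7 above. The IkB kinase complex had small differences. Ikbkb, the catalytic subunit of the canonical route, had 36.4 and 35 CPM in control and 37.3 and 36.5 CPM in knockdown libraries (interval -0.19 to 0.28). Ikbkg, the scaffold NEMO, had 19.7 and 18.9 CPM against 20.4 and 19.1 CPM (interval -0.25 to 0.32). Chuk, the other catalytic subunit (IKK-alpha), had 81.1 and 73.9 CPM against 93.3 and 84.7 CPM. Both knockdown values of Chuk were above both controls, with an interval of -0.02 to 0.42 and adjusted p = 0.405 by edgeR.

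The genes of the TAK1 complex and of TRAF6 lay between the receptor and the IkB kinases in the pathway and showed small differences. Traf6, a ubiquitin ligase, had 21.4 and 19.7 CPM in control and 24.0 and 23.0 CPM in knockdown libraries, both above the controls (interval -0.09 to 0.48). Tab2, which reads ubiquitin chains for TAK1, had 89.8 and 85.3 CPM against 94.3 and 92.1 CPM (interval -0.10 to 0.28). Tab1, the other TAK1 partner, had 25.6 and 22.2 CPM against 28.5 and 23.6 CPM, with overlapping groups. Map3k7, which encodes TAK1, had 31.6 and 32.0 CPM in control and 34.6 and 22.6 CPM in knockdown libraries. Knockdown library 2 was the low one there, 1.4-fold under the nearest other library, and the fitted change was 0.12 without it and -0.15 with it.

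The IRAK genes varied in how closely their libraries agreed. Irak2, a kinase that sustains late TLR signalling, had 41.5 and 28.6 CPM in control and 43.9 and 37.0 CPM in knockdown libraries, so the controls differed more than the groups did. Irak3, which encodes IRAK-M, a brake on the IRAK complex induced by LPS, had 39.7 and 46.0 CPM against 39.3 and 34.5 CPM. Both knockdown values lay below the controls, the nearest pair by a small margin (interval -0.50 to 0.07). Irak1 had 51.6 and 46.1 CPM against 48.5 and 43.8 CPM, and Irak4, the kinase that starts the cascade, had 21.7 and 21.7 CPM against 21.5 and 19.2 CPM.

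Of the 5 NF-kB subunit genes, 0 passed by edgeR, and Nfkb2 and Relb were those whose groups did not overlap. Nfkb2 (chromosome 19, 46304320 to 46312385, plus strand, GRCm38), the gene of p100, the precursor that is processed to p52, had 5975 and 5011 counts in control and 4414 and 3442 counts in knockdown libraries. These were 78.3 and 81.0 CPM against 59.6 and 54.3 CPM. Both knockdown libraries were well below both controls, with means of 79.7 ± 1.91 and 57.0 ± 3.70 CPM (SD, n = 2 each) and a log2 fold change of -0.48 ± 0.09 (SE, interval -0.69 to -0.27, edgeR adjusted p = 0.0751). Relb (chromosome 7, 19606217 to 19629438, minus strand, GRCm38), whose product pairs with p52 in the alternative NF-kB route, had 19.7 and 17.6 CPM in control and 14.2 and 14.2 CPM in knockdown libraries. Here too the groups did not overlap, and the log2 fold change was -0.39 ± 0.13 (SE, adjusted p = 0.255 by edgeR).

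The groups overlapped for each of the other subunits. Rela, the p65 subunit, had 73.9 and 73.4 CPM in control and 69.6 and 78.0 CPM in knockdown libraries (interval -0.21 to 0.22). Rel, the c-Rel subunit of haematopoietic cells, had 48.8 and 50.7 CPM against 46.7 and 51.4 CPM (interval -0.25 to 0.20). Nfkb1, the gene of p105 and p50, had 191 and 177 CPM against 179 and 159 CPM (interval -0.33 to 0.09), with overlapping groups. No test compared Nfkb2 and Relb with these genes. Ratios within a library are free of scaling to library size. The count of Nfkb2 over that of Nfkb1 was 0.411 and 0.457 in control and 0.332 and 0.341 in knockdown libraries. The count of Relb over that of Rela was 0.267 and 0.240 against 0.205 and 0.182. Neither ratio overlapped between groups. Nfkb2 and Relb were already the subunit genes whose groups did not overlap, so their ratios are not separate evidence. Ratios were also formed for other pairs. Tnfaip3 to Tnip1, Ticam2 to Ticam1 and Tirap to Myd88 did not overlap either, while Nfkbia to Rela did. By construction a within-library ratio shows unequal change of its genes, not which of them moved. All of these ratios were formed after the values were seen and have no test. An exact two-sided permutation test of 2 against 2 libraries cannot go below p = 0.333.

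**Figure D2:**
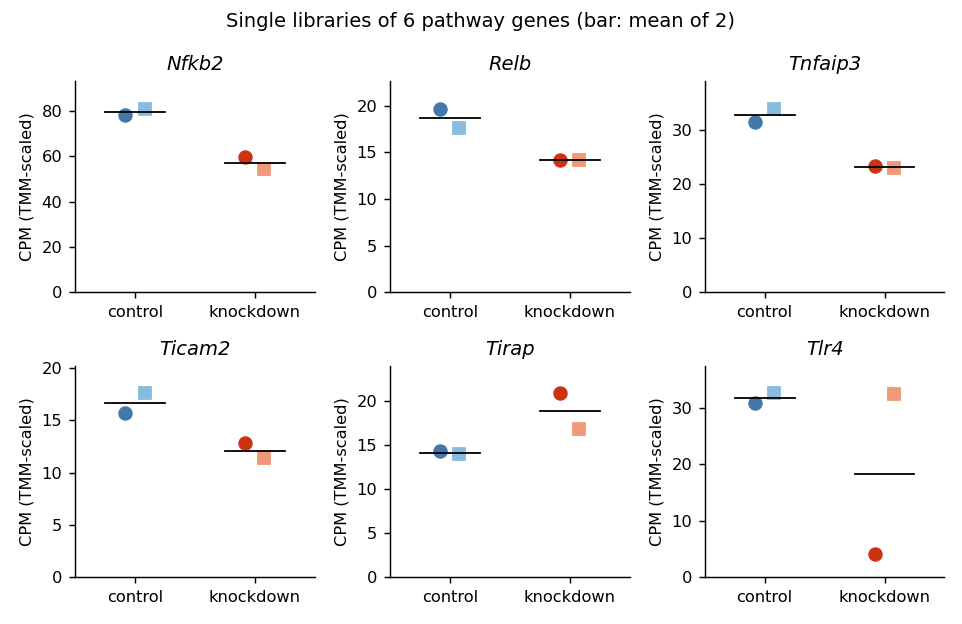
CPM in each library (vertical axis from 0) for 6 genes, with a bar at the mean of the 2 libraries of a group. Nfkb2, Relb, Tnfaip3 and Ticam2 are lower and Tirap higher in both knockdown libraries, while the low mean of Tlr4 comes from knockdown library 1 alone at 4.06 CPM.

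Tnfaip3 had the lowest adjusted p of the inhibitor tier. It encodes A20, the ubiquitin-editing enzyme that shuts off signalling at TRAF6 and at the IkB kinases. It had 2412 and 2106 counts in control and 1723 and 1458 counts in knockdown libraries, or 31.6 and 34.0 CPM against 23.3 and 23.0 CPM. Both knockdown libraries were lower, with means of 32.8 ± 1.72 and 23.1 ± 0.167 CPM (SD, n = 2 each). The log2 fold change was -0.50 ± 0.11 (SE, interval -0.76 to -0.24, edgeR adjusted p = 0.110).

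Nfkbia, the gene of IkB-alpha, the inhibitor that NF-kB re-synthesises after each round of activation, had 144 and 149 CPM in control and 162 and 148 CPM in knockdown libraries. Its groups overlapped and its interval was -0.11 to 0.26. Nfkbib (IkB-beta) had 79.2 and 85.9 CPM against 82.7 and 68.3 CPM, with overlapping groups. Nfkbie (IkB-epsilon) was scarce, at 277 and 140 counts in control and 116 and 117 counts in knockdown libraries. Control library 1 was 1.6-fold above the next highest, and the log2 fold change of -0.79 had an interval of -1.68 to 0.10.

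The nuclear IkB genes and the A20 partners had smaller differences or wider spread. Nfkbiz, a nuclear cofactor needed for secondary response genes, had 129 and 119 CPM in control and 122 and 125 CPM in knockdown libraries (interval -0.20 to 0.17). Bcl3, a nuclear partner of p50 and p52 dimers, had 44.8 and 47.4 CPM against 44.1 and 36.1 CPM, both below the controls (interval -0.49 to 0.09). Tnip1, an A20-binding protein, had 169 and 179 CPM against 171 and 147 CPM, with overlapping groups. Tnip3, a related A20-binding protein, had 541 and 321 counts in control and 232 and 494 counts in knockdown libraries, and its lowest and its highest CPM both came from the knockdown group.

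Several of the subunit and inhibitor genes are themselves known targets of NF-kB, so their promoters were searched for the kappaB consensus. It was written as GGGRNNYYCC (R for A or G, Y for C or T, N for any base). Both strands were searched in the RefSeq windows of 300 bases (250 before to 50 after the start, build GRCm38.p6). Windows were present for 22 of the 31 genes, and 10 of these held a match, where 9.55% of 27025 genes with a window did. By tier, matches were found in 6 of 7 inhibitor and feedback genes, 2 of 3 subunit genes, 2 of 9 kinase genes and 0 of 3 receptor and adaptor genes. A match is a description of the sequence, not a site of binding, and a window without one says only that these letters are absent from it. The 150 bases before the first RefSeq start are printed for 5 genes, 5′ to 3′, with matches in capitals. Nfkb2 and Tnfaip3 are shown as the genes with the lowest adjusted p of their tiers, and Nfkbia, Rel and Tnip1 as genes with matches whose groups overlapped.
Nfkb2 (chr19:46304587-46304736, plus strand): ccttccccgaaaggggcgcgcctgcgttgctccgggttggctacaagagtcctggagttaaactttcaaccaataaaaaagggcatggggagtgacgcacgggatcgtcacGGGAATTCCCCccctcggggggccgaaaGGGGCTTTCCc
Tnfaip3 (chr10:19015411-19015560, minus strand): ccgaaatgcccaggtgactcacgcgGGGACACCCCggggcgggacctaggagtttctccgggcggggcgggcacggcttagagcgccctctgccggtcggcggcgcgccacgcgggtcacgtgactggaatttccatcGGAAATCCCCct
Nfkbia (chr12:55492648-55492797, minus strand): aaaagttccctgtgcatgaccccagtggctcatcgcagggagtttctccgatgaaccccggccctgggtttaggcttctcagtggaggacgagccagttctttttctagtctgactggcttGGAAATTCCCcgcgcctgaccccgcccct
Rel (chr11:23770970-23771119, minus strand): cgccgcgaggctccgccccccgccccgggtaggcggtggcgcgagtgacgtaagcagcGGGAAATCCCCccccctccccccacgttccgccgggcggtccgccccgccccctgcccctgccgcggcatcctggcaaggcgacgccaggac
Tnip1 (chr11:54962941-54963090, minus strand): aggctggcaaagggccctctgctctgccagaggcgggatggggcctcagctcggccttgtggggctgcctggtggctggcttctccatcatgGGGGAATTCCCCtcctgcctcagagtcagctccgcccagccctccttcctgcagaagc
Counting the base before the start as -1, the stretches of Nfkb2 began at -39 and -11 and those of Tnfaip3 at -125 and -12. Those of Nfkbia, Rel and Tnip1 began at -29, -92 and -58. Nfkb2 and Tnfaip3 each had 2 separate stretches in these bases, and Nfkbia, Rel and Tnip1 each had 1. With 5 genes picked by their values, this is a description, and no test was made of it. Irak1, Map3k7, Nfkbie, Bcl3 and Tnip3 also held a match in their windows but are not printed. Their stretches are not given here, although both knockdown libraries lay below both controls for Nfkbie and Bcl3 too.

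Set side by side, the tiers differed little from each other. The median log2 fold change was -0.04 for receptors and adaptors, 0.05 for kinases and complexes, -0.12 for NF-kB subunits and -0.15 for inhibitors and feedback genes. Of all 15733 genes 8034 had a fitted change below 0. Of the 8 inhibitor and feedback genes 7 did, among them Nfkbib, Nfkbiz and Tnip3, whose sign turned when single libraries were left out. Of the 5 subunit genes 4 did; Rela, at 0.00, took either sign with the scaling, and Rel turned when single libraries were left out. Both knockdown libraries lay below both controls for 2 of 7, 2 of 11, 2 of 5 and 3 of 8 genes in the same order of tiers, against 23.8% of all genes. Both lay above for 2 of 7, 4 of 11, 0 of 5 and 0 of 8, against 23.8%. Knockdown library 2 weighed on the inhibitor tier: as the tier's median deviation from each gene's mean, it stood at -0.19 and knockdown library 1 at 0.01, with controls at 0.06 and 0.07. Without knockdown replicate 2 that tier's median fold change was -0.04. For the subunits the same deviation was 0.11 and 0.04 in control and -0.08 and -0.15 in knockdown libraries.

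**Figure D3:**
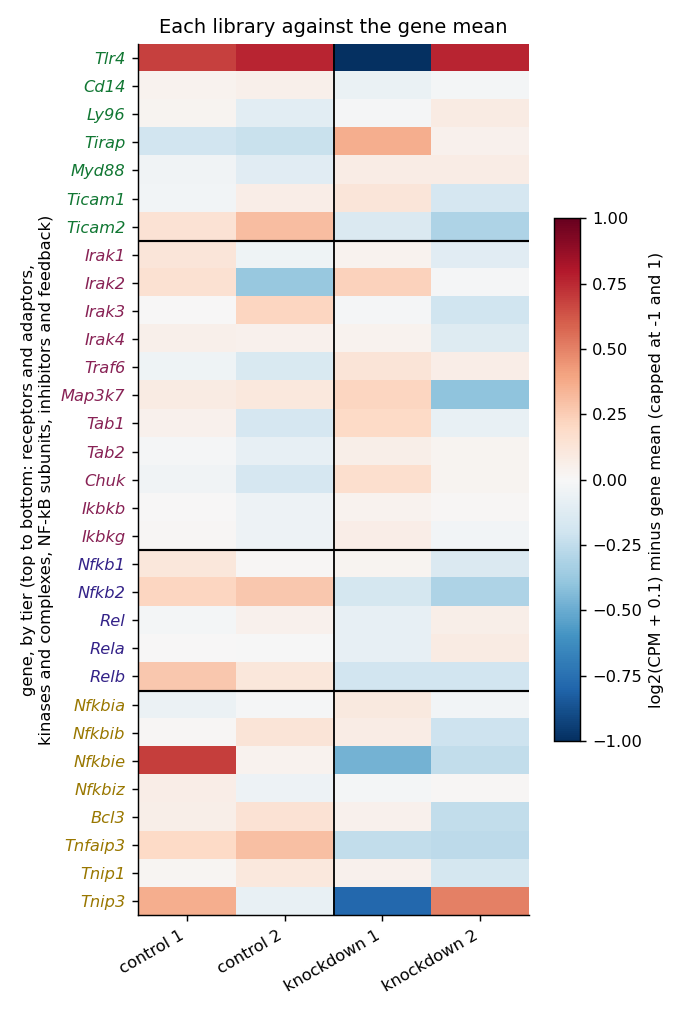
Each library's log2(CPM + 0.1) minus the mean of its gene (colour, capped at -1 and 1), with 31 genes in rows by tier and 4 libraries in columns. Nfkb2, Relb and Tnfaip3 are blue in both knockdown columns and red in both control columns, while Tlr4 is dark blue in knockdown library 1 alone.

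Compared per length on the FPKM scale, the pathway's genes ranged from Nfkbia at a mean of 84.2 FPKM over the 4 libraries (81.1 to 89.4) down to Tnip3 at 0.475 FPKM (0.253 to 0.631). Cd14 was next to Nfkbia at 81.7 FPKM, followed by Tnip1 at 42.3, Myd88 at 38.1 and Nfkbib at 32.8 FPKM. The receptor gene Tlr4 was far below its co-receptor Cd14, at 5.03 and 5.36 FPKM in control libraries against 84.2 and 85.8 FPKM. Among the adaptors Myd88 stood highest and Ticam2, at a mean of 2.23 FPKM, lowest. Rela led the subunits at 21.6 FPKM, before Nfkb2 at 13.4, Nfkb1 at 13.2, Rel at 5.95 and Relb at 3.80 FPKM. Of the 30 neighbouring pairs in this order, 22 had overlapping ranges over the 4 libraries, so most neighbours were not separated.

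The order rests on which length the authors used. A length was worked out from the deposited counts and FPKM, with the summed counts taken as library size. For 10960 genes with over 100 counts in every library, it was 1.11 to 1.12 times the union of all annotated exons in GENCODE M21 (5th to 95th percentile). The length was thus nearly proportional to that union. Whether the constant factor lies in the length or in the library size behind the FPKM was not tested. For the members not named next, that union is at most 1.53 times the longest transcript. It is 3.94 times the longest transcript for Ikbkb (19078 against 4845 bases), 2.91 times for Nfkb1 and 2.36 times for Tnip3. In a rescaling to the longest transcript, chosen after seeing the data, Nfkb1 moved from 13.2 to 38.3 FPKM and from place 12 to place 5, above Rela at 24.4. Ikbkb moved from 1.71 to 6.72 FPKM and from place 29 to place 19. Comparisons between groups are made within a gene and do not depend on this length.

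**Figure D4:**
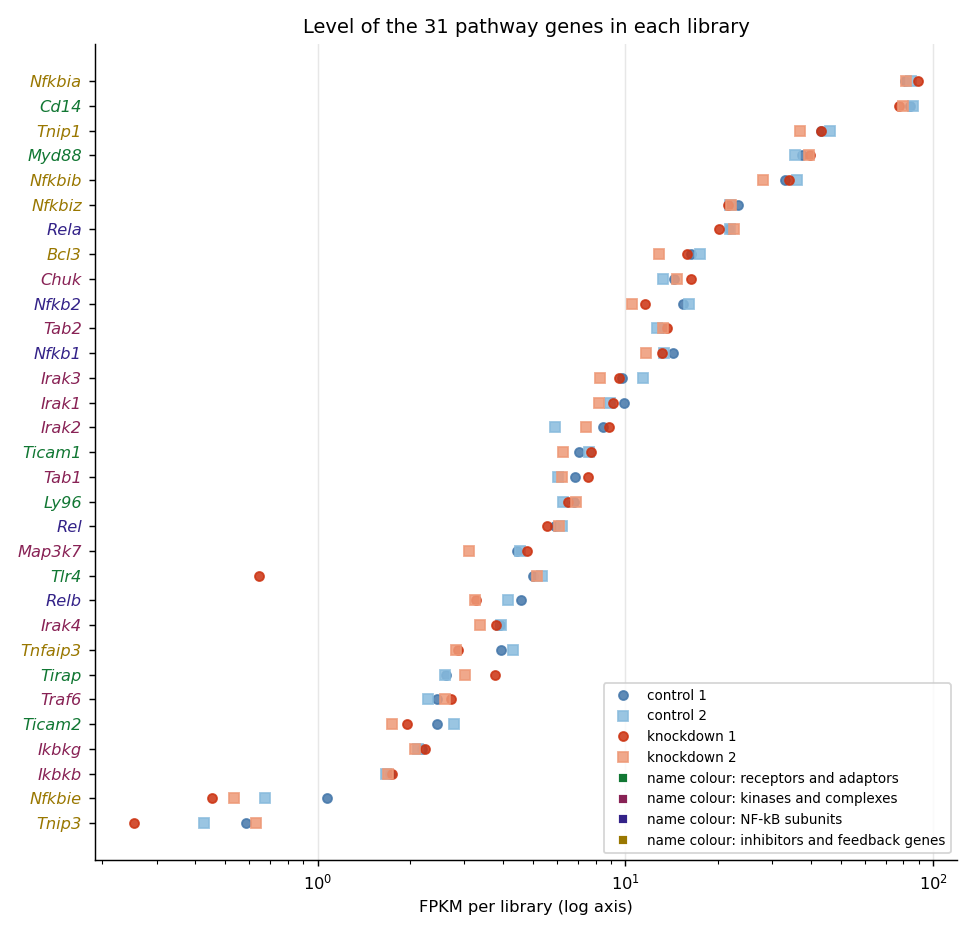
FPKM in each of the 4 libraries (log axis) for the 31 genes, ordered by their mean, with names coloured by tier. Nfkbia and Cd14 stand highest, Nfkbie and Tnip3 lowest, and 1 point of Tlr4, from knockdown library 1 at 0.647 FPKM, lies apart from its other 3.

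Of 70 other genes of the pathway, in 4 companion lists, 66 were tested and 5 passed over all genes, 1 higher and 4 lower in the knockdown libraries. The 4 that fell were all in the list of NF-kB target genes, where 4 of 19 tested fell, 0 rose and 15 did not pass, against 0.547% of all genes called lower. Saa3, an acute phase protein gene, fell from 1449 and 1739 CPM to 748 and 808 CPM (log2 fold change -1.04 ± 0.10, SE, adjusted p = 0.0152 by edgeR). Acod1, which makes itaconate, fell from 330 and 300 CPM to 179 and 185 CPM. Nos2, the inducible nitric oxide synthase, fell from 68.9 and 55.9 CPM to 27.7 and 23.4 CPM. Sod2, the mitochondrial superoxide dismutase, fell from 370 and 397 CPM to 279 and 276 CPM. No library of one group reached into the other for these 4 genes. Their calls rested on all 4 libraries to differing degrees: leaving out knockdown replicate 2 ended all of them, and each also lost its call without at least 1 other library. Over all companions, 1, 3 and 2 passed without control replicate 1, control replicate 2 and knockdown replicate 1. This list was put together with earlier results of these data known, so its count is not independent evidence.

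The cytokine and chemokine genes of that list went in both directions and none passed; those named here were picked after their values were seen. Tnf had 64.2 and 57.2 CPM in control and 75.8 and 79.0 CPM in knockdown libraries (adjusted p = 0.171 by edgeR). Ccl2 had 66.6 and 84.5 CPM against 90.7 and 94.8 CPM (adjusted p = 0.345 by edgeR). Tnf and Ccl2 were higher in both knockdown libraries. Ccl3 had 454 and 500 CPM against 425 and 416 CPM (adjusted p = 0.333 by edgeR). Cxcl10 had 19.4 and 18.7 CPM against 16.5 and 14.8 CPM (adjusted p = 0.401 by edgeR). Ccl3 and Cxcl10 were lower in both, as were the scarcer Il1b and Csf3, at log2 fold changes of -0.38 and -0.46, while the groups overlapped for Il6. Over the tested genes of the list the log2 fold change had a median of -0.28, against -0.01 over all genes.

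The remaining lists held a single call. Tbkbp1, an adaptor of the kinase TBK1 in the TRIF and IRF branch, rose from 42.4 and 42.9 CPM to 72.8 and 73.6 CPM, 1.72-fold (adjusted p = 0.0152 by edgeR). It was 1 of 10 tested genes there, where 0.407% of all genes were called higher, and it did not pass when any 1 library was left out. Tbkbp1 overlaps a microRNA gene model on its own strand, and how reads were shared between them is not known here. Of the other Toll-like receptors and accessory genes 0 of 16 tested passed by edgeR; unadjusted p-values below 0.05 numbered 1 for higher and 4 for lower, against 7.52% and 6.7% of all genes. DESeq2 called 10 of all companions, against 5.22% of all genes. Hsp90b1, the chaperone that folds Toll-like receptors, was the most abundant of the other Toll-like receptors and accessory genes. It had 859 and 825 CPM in control and 806 and 859 CPM in knockdown libraries. Tlr2, the receptor of bacterial lipoproteins, had 237 and 241 CPM against 198 and 205 CPM (adjusted p = 0.186 by edgeR). Of the ubiquitin enzymes and other brakes 0 of 21 passed by edgeR, and unadjusted p-values below 0.05 numbered 0 for higher and 2 for lower, against the same 7.52% and 6.7%. Rbck1, a subunit of the linear ubiquitin ligase, had 104 and 110 CPM against 130 and 103 CPM, and Tax1bp1, an A20 adaptor, had 114 and 95.2 CPM against 116 and 118 CPM.

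**Figure D5:**
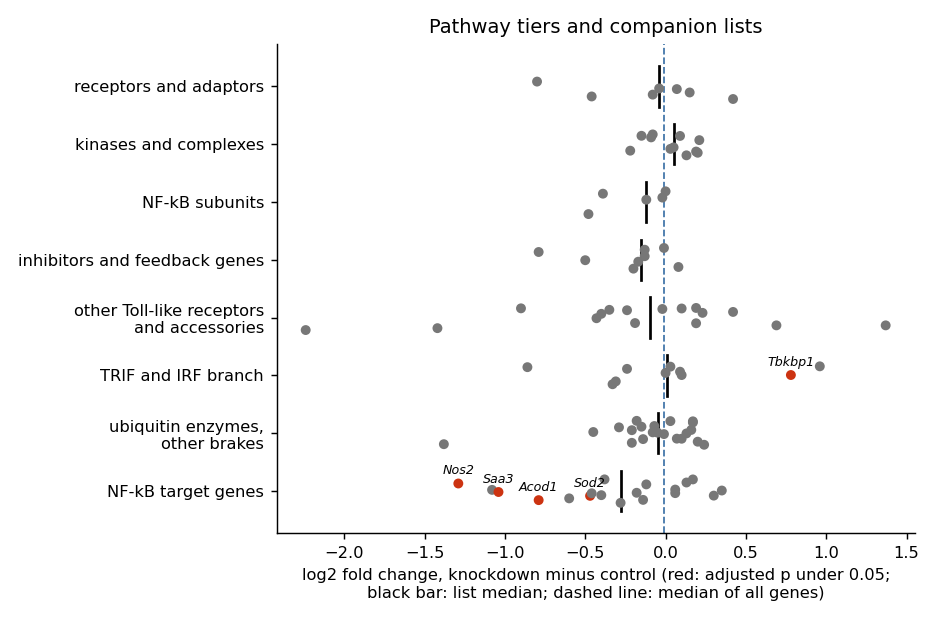
Log2 fold change (knockdown minus control) of each tested gene in the 4 tiers and 4 companion lists, with list medians as black bars and the median of all genes, -0.01, as a dashed line. The 5 genes that passed are red: Nos2, Saa3, Acod1 and Sod2 among the targets and Tbkbp1 in the TRIF and IRF branch, and none of the 31 pathway members is red.

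Marker genes were checked for the labelled cell type. All 8 microglia and macrophage markers were detected, and their summed level was 1687 and 1725 CPM in control and 1487 and 1429 CPM in knockdown libraries. Marker sums are counts relative to library totals alone, without TMM scaling, while the CPM of single genes keep that scaling. Of the 8, 3 fell and 0 rose, where 0.547% of all genes were called lower and 0.407% higher. Csf1r, the receptor for colony stimulating factor 1, went from 310 and 311 CPM to 231 and 215 CPM. Other gene models overlap Csf1r on its own and on the opposite strand, and how reads were shared between them is not known here. Adgre1 and Aif1 fell by 0.63 and 1.04 on the log2 scale (adjusted p = 0.0198 and 0.0440 by edgeR). Spi1, Cd68, Ptprc and Itgam did not pass, and Cx3cr1, a receptor typical of resting microglia, was close to the detection floor at 0.256 to 0.853 CPM. The 20 markers of neurons, astrocytes, oligodendrocytes, endothelium and fibroblasts summed to 51.2 and 48.0 CPM in control and 39.2 and 23.9 CPM in knockdown libraries, and 14 of the 20 were at a count of 0 in knockdown library 2, all 5 neuronal markers included, against 1 to 2 in each other library. Of the 20, 13 were tested and 0 passed by edgeR. The summed level of the 20 was lower in both knockdown libraries, as were Nfkb2, Relb and Tnfaip3. The astrocyte sum overlapped between groups (28.6 and 26.4 against 26.9 and 23.4 CPM). Most of it, and a large part of the sum of the 20, came from Aldoc (TMM-scaled, 26.7 and 24.1 against 26.4 and 23.3 CPM). Gfap, Aqp4 and Slc1a3 were lower in both knockdown libraries, while Aldh1l1, too scarce to be tested, was highest in knockdown library 2. The neuron sum was 6.18 and 5.71 CPM in control and 3.16 and 0 CPM in knockdown libraries. For oligodendrocytes it was 15.4 and 14.5 against 8.41 and 0.311 CPM. Single markers such as Rbfox3, Mog and Col1a2 were highest in knockdown library 1. The part of these markers in the values of the pathway genes was not tested.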

How the data were processed

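RNA sequencing measured 4 libraries of LPS-treated BV-2 cells, 2 control and 2 SIX2 knockdown, grouped by the genotype label. Per the labels' protocols, mRNA was captured on oligo-dT beads and dUTP libraries were sequenced paired-end. The deposited values were estimated counts per Ensembl gene, whole numbers with no normalisation, so rounding changed nothing; 42.1% to 47.2% of values from 1 to 20 were multiples of 4, so the floor was set at 12 counts (3 fragments of 4 counts, an assumption). The deposited FPKM values carry that unit per the file headers, and their length was worked out from the counts, up to a nearly constant factor. Bowtie 0.12.2 and mm8 are named per the submitters' processing notes, while 21876 of 24422 genes, 24 of the 31 members among them, had GENCODE M21 (GRCm38) coordinates, so coordinates are given on GRCm38. Which program counted the reads, and whether by strand, is not given in the sources read. The tables hold 12 further columns without a labelled sample, and these stayed out.

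The test was edgeR 4.0.16 under R 4.3.3 (filterByExpr, TMM, robust quasi-likelihood F test, two-sided, no covariate, Benjamini-Hochberg adjustment over all 15733 genes). Intervals are 95% from the fit, and floors cover counting error only. The script was tested on simulated data. Alternatives were DESeq2 1.42.0, limma-voom and limma-trend (3.58.1; log2 of FPKM plus 1 or 0.1), other scalings, filters and thresholds, counts divided by 4, a replicate block and leaving out each library. All members are named; companions are named where they passed, or else the 2 most abundant of a list, and any others are said to be chosen by their values. The members and lists were chosen with earlier results of these data known. Promoter sequences came from RefSeq on GRCm38.p6.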

Additional observations from a re-analysis of the deposited data

How the results depend on the processing

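Across 15 other fits, 19 of the 31 members kept the sign of their fold change, Nfkb2 (-0.55 to -0.42), Tnfaip3 (-0.56 to -0.42), Relb, Ticam2 and Tirap among them. The other 12, with Tlr4, changed sign in at least 1 without passing there; the cause was not tested. No member passed as reported. The number that passed was 2 by DESeq2 (Nfkb2, adjusted p = 0.000308, and Tnfaip3, 0.00355), 1 without the low-count filter (Nfkb2, 0.0354), 1 at an adjusted p under 0.10 (Nfkb2) and 0 to 1 over the fits without 1 library, where the call was Tlr4 without knockdown replicate 2. Over all alternatives the adjusted p of Nfkb2 went up to 0.303 and that of Tnfaip3 up to 0.394.

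Over all genes, 150 passed, against 806 by DESeq2, 297 without the low-count filter, 305 at an adjusted p under 0.10, 65 with limma-voom, 7 without the robust option, and 3 and 3 with limma-trend on log2(FPKM + 1) and log2(FPKM + 0.1). Without 1 library 41 to 112 passed. Leaving out genes that overlap on the same strand and pseudogenes, a choice added after seeing the data, gave 228 genes and 1 member (Nfkb2). Fewer genes were then tested, and scaling and spread were fitted anew. The cause of the higher number was not tested. With the replicate number as a block, which leaves 1 residual degree of freedom, 0 genes, 0 members and 0 companions passed. The labels do not say that a number marks a shared culture or day, and replicate 1 minus replicate 2 correlated at 0.049 between groups across 15733 genes, so the numbers were not taken as pairs.

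Of the companions 5 passed, against 10 with DESeq2, 0 without the robust option, 0 with either limma-trend fit and 0 to 3 without 1 library. Saa3, Acod1, Nos2, Sod2 and Tbkbp1 kept their direction in each fit that tested them. Their highest adjusted p over these fits was 0.167, 0.150, 0.167, 0.230 and 0.150.

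The median log2 fold change without 1 library ran from -0.07 to -0.01 over all members, -0.08 to 0.03 for receptors and adaptors, -0.01 to 0.11 for kinases and complexes, -0.21 to -0.07 for NF-kB subunits and -0.26 to -0.04 for inhibitors and feedback genes. For receptors and adaptors it was -0.07 with library totals alone, and -0.07 and -0.08 with limma-trend on log2(FPKM + 1) and log2(FPKM + 0.1), against -0.04. Intervals of the fold change were widest for Tlr4, Tnip3 and Nfkbie, and the latter pair also had the lowest mean counts, 116 to 541 per library.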
